A study of Homo sapiens with 10 samples.

Results

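The genes described here are 33 genes linked to ATF4, the transcription factor at the centre of the integrated stress response, chosen by name and followed in 2 human myeloid leukaemia cell lines with and without JOA. They comprise transcription factors, feedback and growth regulators, enzymes of amino acid and one-carbon metabolism, and amino acid carriers. VLDLR, a lipoprotein receptor, was counted with the feedback genes and XPOT, a transfer RNA exporter, with the carriers. Transcripts of all 33 were found in the NB4 table, among 21944 gene symbols. In the Kasumi-1 table, 19 of the 33 were found among 10802 symbols, and 14 had no matched row there and were not analysed in that line.

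RNA was sequenced in 10 libraries. Kasumi-1 carries the RUNX1-RUNX1T1 fusion gene of core-binding-factor leukaemia and had 3 libraries treated with 1 µM JOA for 48 hours and 3 control libraries kept for the same time. NB4 comes from acute promyelocytic leukaemia, carries PML-RARA, and had 2 libraries with 1 µM JOA for 48 hours and 2 control libraries kept for the same time. The labels give JOA only by this abbreviation and do not say what the control culture received. For the treated NB4 libraries 1 label, the source, reads I13; all others read JOA, which was followed here. Each group is a culture of 1 established cell line, so the data describe those lines only.

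In the integrated stress response, kinases that sense amino acid shortage, misfolded protein, haem shortage, mitochondrial damage or viral RNA phosphorylate the translation factor eIF2. General protein synthesis then drops, while ATF4 protein is made more efficiently from its messenger RNA through short upstream reading frames. ATF4 pairs with C/EBP-family factors, binds C/EBP-ATF response elements and switches on genes for making and importing amino acids, together with regulators such as DDIT3 (CHOP) and the eIF2 phosphatase subunit PPP1R15A. Because ATF4 is controlled largely at translation, the level of its messenger RNA is not a measure of its protein. In leukaemia the pathway is best known through asparagine synthetase (ASNS), whose level bears on the response to asparaginase.

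The response element has a core spelled TGATGNAA, where N is any base, and this core was searched on both strands of the RefSeq promoters (GRCh38.p14, 250 bases before to 50 bases after each annotated start). Of the members, 25 had a promoter entry, with 40 promoters in all, and 8 did not (ALDH1L2, EIF4EBP1, GPT2, NUPR1, PSPH, PYCR1, SHMT2 and SLC7A11). The core stood in 8 of the 40 promoters (20%), each of a different member, against 1270 of all 35116 promoters (3.62%). The 8 members were ASNS, ATF3, CEBPG, CHAC1, JDP2, SLC1A5, SLC3A2 and SLC7A1. The fully spelled variant TGATGCAA, which is contained in the first motif, stood in promoters of 4 members (CEBPG, CHAC1, JDP2 and SLC1A5), and in 0.866% of all promoters. The promoters below are shown because each holds the core upstream of the start of a gene whose RNA is described later, with the core in capitals. They lie at chr7:97872359-97872658 on the minus strand (ASNS), chr19:33373863-33374162 on the plus strand (CEBPG), chr14:75427772-75428071 on the plus strand (JDP2) and chr15:40953221-40953520 on the plus strand (CHAC1), and each is written 5′ to 3′ along the gene.
ASNS: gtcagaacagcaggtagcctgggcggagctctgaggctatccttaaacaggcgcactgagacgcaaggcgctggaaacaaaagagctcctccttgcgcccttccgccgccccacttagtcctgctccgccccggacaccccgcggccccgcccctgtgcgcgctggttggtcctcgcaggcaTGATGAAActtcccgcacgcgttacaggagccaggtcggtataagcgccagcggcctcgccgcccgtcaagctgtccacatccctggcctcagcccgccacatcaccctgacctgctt
CEBPG: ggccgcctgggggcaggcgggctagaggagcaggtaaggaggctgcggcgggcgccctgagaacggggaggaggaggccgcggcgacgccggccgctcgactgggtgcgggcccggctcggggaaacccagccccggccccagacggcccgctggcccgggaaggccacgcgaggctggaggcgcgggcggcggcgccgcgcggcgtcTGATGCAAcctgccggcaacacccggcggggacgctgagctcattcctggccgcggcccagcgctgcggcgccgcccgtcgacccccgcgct
JDP2: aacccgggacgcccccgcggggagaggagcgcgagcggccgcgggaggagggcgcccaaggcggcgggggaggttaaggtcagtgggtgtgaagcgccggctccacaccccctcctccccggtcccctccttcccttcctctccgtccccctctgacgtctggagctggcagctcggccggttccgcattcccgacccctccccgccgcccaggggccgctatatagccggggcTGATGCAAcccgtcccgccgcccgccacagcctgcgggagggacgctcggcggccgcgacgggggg
CHAC1: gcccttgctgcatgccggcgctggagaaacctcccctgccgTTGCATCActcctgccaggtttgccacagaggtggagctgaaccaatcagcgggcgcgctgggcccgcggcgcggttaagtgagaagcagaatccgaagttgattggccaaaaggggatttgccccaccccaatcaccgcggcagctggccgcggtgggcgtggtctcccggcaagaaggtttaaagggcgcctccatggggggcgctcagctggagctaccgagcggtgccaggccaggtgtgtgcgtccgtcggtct
Counting the start base as 1 and the base before it as -1, the core lay at -68 to -61 in ASNS, -42 to -35 in CEBPG and -16 to -9 in JDP2. In CHAC1 it lay on the opposite strand at -209 to -202, so that its capitals read as the reverse complement. A match describes these letters only and is not a binding site measured in these cells.

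The Kasumi-1 values are FPKM and the NB4 values are TPM, each per transcript length, and each table had its own normalisation, so levels are compared between genes of 1 line and never between lines. The FPKM sums of the Kasumi-1 libraries ran from 265824 to 277629, and their relative depths ran from 91.4 to 100% of that of control 1. The sequencing depth of NB4 cannot be read from TPM and is unknown. Of the markers chosen for the lines, Kasumi-1 showed RUNX1T1 at 17.1 to 20.2 FPKM, along with KIT, MPO and RUNX1, while NB4 showed MPO, PRTN3, AZU1 and CTSG in all libraries and ELANE at 0.0786 to 1.59 TPM. In NB4, PRTN3 stood at 41.9 and 41.0 TPM with JOA and at 141 and 257 TPM in controls. Markers of other cell types were summed over 4 of 15 listed genes in Kasumi-1 (34.7 to 45.1 FPKM with JOA, 36.3 to 46.2 FPKM in controls). In NB4 the sum over 14 of 15 was 55.9 to 68.5 TPM with JOA and 44.7 to 48.0 TPM in controls. EPCAM in Kasumi-1, and CD3D and EPCAM in NB4, carried most of these sums. KRT19 was listed at 0 in every NB4 library. The part of these markers in the results below was not tested, and in bulk RNA fewer cells of a type and less RNA per cell cannot be told apart. The labels do not say whether replicates were grown apart; p-values therefore rest on a spread between libraries that may be technical.

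No member passed the adjusted threshold in Kasumi-1 without pairing of libraries. All 17 members that could be tested differed by less than 0.3 on the log2(FPKM + 1) scale, 15 of them by less than 0.2, and in all 17 the JOA and control libraries overlapped. Limma called 0 of the 17 members at a Benjamini-Hochberg adjusted p under 0.05, beside 0 of all 12101 genes (0%). Rows with a record but no matched symbol stayed in this fit, each counted as a gene. In the Kasumi-1 fits here and below, all genes therefore means symbols and such unmatched rows together. At an unadjusted p under 0.05 there were 0 members, beside 16.4% of all genes, and 0 members had groups that did not overlap, beside 23.1% of all genes. A change on this scale understates that of genes at low level. The median change of the members was 0.02, beside 0.05 over all genes tested, and it turned to -0.03 beside -0.01 when libraries were scaled by median ratios.

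**Figure D1:**
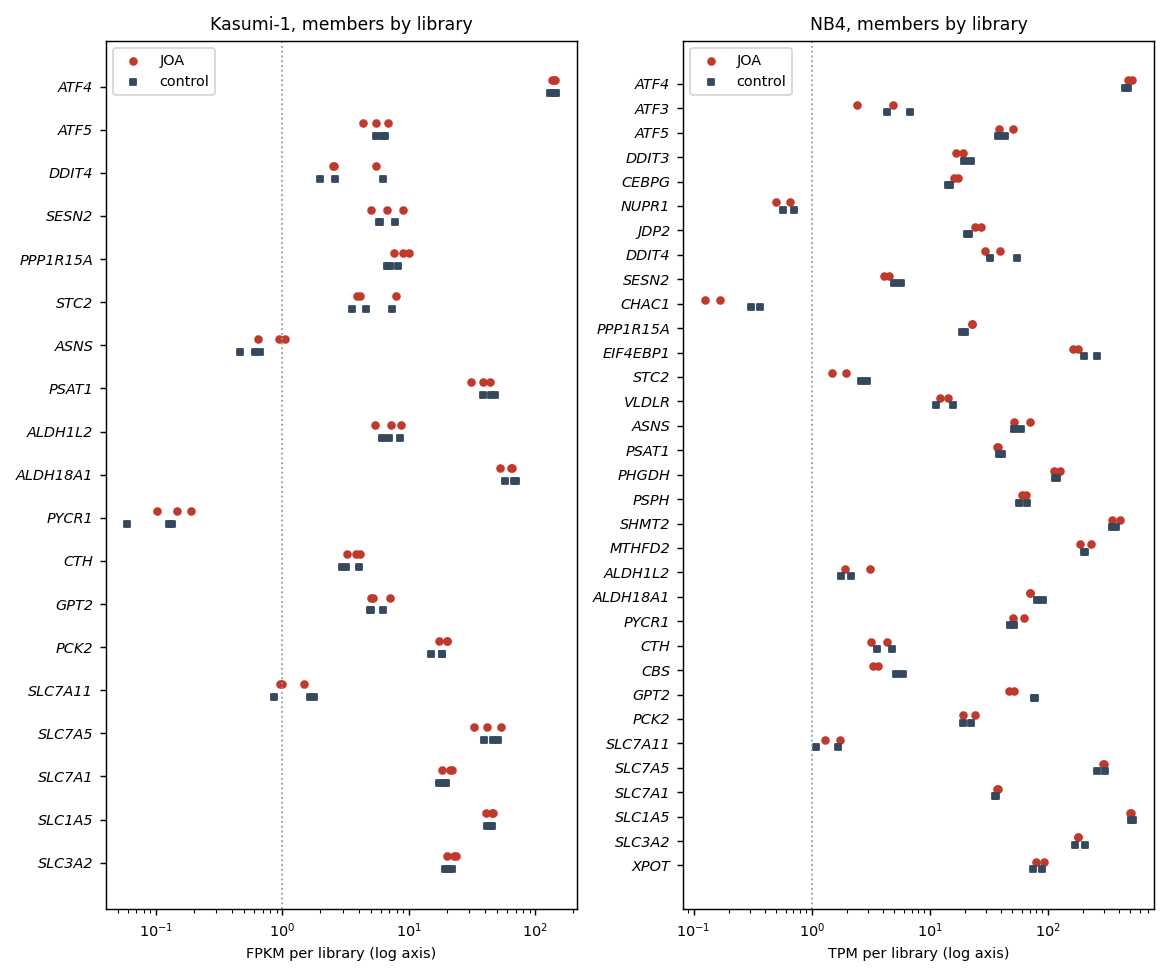
FPKM in each Kasumi-1 library (left) and TPM in each NB4 library (right), on log axes, for every member found in each table, with JOA as circles above control as squares. The dotted line marks 1, the level used to filter. JOA and control values lie close together in most rows, and GPT2, CBS and CHAC1 in NB4 are rows where the JOA circles lie to the left of the squares.

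ATF4 (chr22:39519695-39522685, GENCODE coordinates on GRCh38 here and below) was the most abundant of the members with a matched row in Kasumi-1. It measured 142, 142 and 137 FPKM in JOA libraries 1, 2 and 3, against 145, 142 and 131 FPKM in controls 1, 2 and 3. The JOA values fell within the range of the controls, and the log2 change was 0.01 (95% interval -0.13 to 0.15). ATF5, a related factor with a translational control like that of ATF4, averaged 5.53 ± 1.25 FPKM with JOA and 6.05 ± 0.48 FPKM in controls (SD, n = 3 each). ATF3, DDIT3, CEBPG, NUPR1 and JDP2, the other factors, had no matched row in this line.

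PPP1R15A (chr19:48872392-48876057) encodes GADD34, the subunit that brings a phosphatase to eIF2 and so ends the response. It measured 7.64, 8.95 and 10.1 FPKM with JOA and 6.68, 7.06 and 8.17 FPKM in controls of the same numbers. Each JOA library exceeded the control of its number, although the groups overlapped. The log2 change was 0.25 ± 0.11 (SE), the largest of the 17, with an adjusted p of 0.327 in limma without pairing. Same-numbered Kasumi-1 libraries deviated together across genes, so a fit with the replicate number as a block was also made, and in it limma gave PPP1R15A an adjusted p of 0.0473. That fit called 1 of 17 members, a share of 5.88%, beside 985 of all 12101 genes (8.14%, and 6.08% on the higher side). The call was lost with median-ratio scaling (adjusted p = 0.0759), and leaving out any 1 of the 3 pairs left 0 genes called.

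The other feedback and growth regulators in Kasumi-1 varied more between replicates than with JOA. DDIT4, an inhibitor of the growth kinase mTORC1 also known as REDD1, measured 5.47, 2.58 and 2.52 FPKM with JOA and 6.29, 1.97 and 2.62 FPKM in controls. SESN2, a leucine-sensing inhibitor of mTORC1, measured 8.99, 5.04 and 6.66 FPKM with JOA and 7.72, 5.76 and 5.89 FPKM in controls. Library 1 was the highest of its group for DDIT4 and SESN2 with and without JOA. STC2, a secreted stanniocalcin, averaged 5.28 ± 2.23 FPKM with JOA and 5.14 ± 1.94 FPKM in controls (SD, n = 3 each). The highest upper 95% bounds of the 17 members were those of DDIT4, at 0.90 on the log2(FPKM + 1) scale, and STC2, at 0.70. With pairing the highest was that of PPP1R15A, at 0.37.

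Among the enzymes, PSAT1, which makes phosphoserine on the way to serine, measured 43.9, 38.9 and 30.8 FPKM with JOA and 47.7, 44.6 and 38.6 FPKM in controls. Every JOA library was below the control of its number. The log2 change was -0.21 ± 0.13 (SE), with limma adjusted p-values of 0.479 without pairing and 0.0596 with it. ALDH18A1, which opens proline synthesis from glutamate, measured 65.5, 52.4 and 64.0 FPKM with JOA and 71.0, 57.2 and 67.8 FPKM in controls. It too was lower in all 3 pairs, by 0.11 on the log2 scale, with adjusted p-values of 0.670 without pairing and 0.107 with it. With pairing and median-ratio scaling together, an alternative chosen after seeing the data, limma called PSAT1 (-0.28, adjusted p = 0.0397) and ALDH18A1 (-0.17, adjusted p = 0.0422).

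PCK2, the mitochondrial enzyme that turns oxaloacetate into phosphoenolpyruvate, measured 20.2, 20.1 and 17.3 FPKM with JOA and 18.2, 18.1 and 14.9 FPKM in controls. Each JOA library was above its control, with a log2 change of 0.16 and a paired limma adjusted p of 0.0634. GPT2, the mitochondrial alanine transaminase, measured 7.06, 4.996 and 5.18 FPKM with JOA and 6.30, 5.03 and 4.93 FPKM in controls. Its groups overlapped and its pairs were mixed. CTH, which makes cysteine from cystathionine, and ALDH1L2, a mitochondrial folate enzyme, changed by 0.10 and -0.03 on the log2 scale, with overlapping groups.

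The rows matched to asparagine synthetase held few reads in Kasumi-1. The 2 rows matched to ASNS summed to 1.04, 0.645 and 0.935 FPKM with JOA and 0.466, 0.602 and 0.665 FPKM in controls, from 14 to 31 reads per library on 1 row and 20 to 47 on the other. All 3 JOA libraries were above the control of their number, the groups overlapped, and the gene was under the filter in that line. PYCR1, the last enzyme of proline synthesis, had 3 to 9 reads per library on its matched row and was also under the filter. Only 37.5% of the rows of this table were matched to a symbol. Apart from ASNS, each member found in this line rested on 1 row. How much of the RNA of any member its matched rows hold was not tested. Of the synthesis members, PHGDH, PSPH, SHMT2, MTHFD2 and CBS had no matched row.

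**Figure D2:**
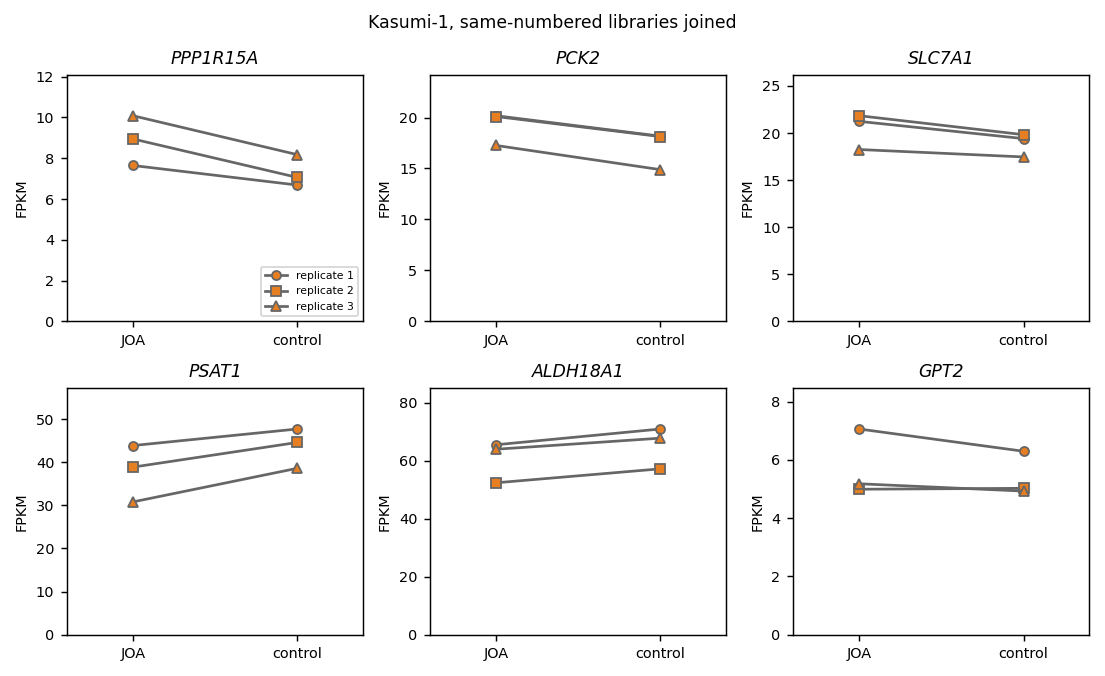
FPKM of 6 members in Kasumi-1, JOA left and control right, with lines joining libraries of the same replicate number. PPP1R15A, PCK2 and SLC7A1 are higher with JOA in all 3 pairs, PSAT1 and ALDH18A1 are lower in all 3, and GPT2 is mixed.

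The carriers import amino acids, and several work as pairs of chains. SLC7A5, the light chain of the large neutral amino acid carrier LAT1, measured 53.8, 41.8 and 32.9 FPKM with JOA and 50.6, 46.7 and 39.1 FPKM in controls. SLC3A2, the heavy chain it shares with SLC7A11, measured 23.5, 20.1 and 22.6 FPKM with JOA and 22.1, 19.4 and 20.5 FPKM in controls. SLC7A5 was mixed over the pairs, whereas SLC3A2 was higher with JOA in all 3, by 0.09 on the log2 scale. SLC7A11, the cystine and glutamate exchanger, measured 1.47, 0.954 and 0.993 FPKM with JOA and 1.77, 1.66 and 0.853 FPKM in controls. SLC7A1, which imports arginine and lysine, measured 21.2, 21.8 and 18.3 FPKM with JOA and 19.4, 19.8 and 17.5 FPKM in controls, higher in each pair by a mean of 0.11 on the log2 scale. SLC1A5, the glutamine carrier ASCT2, averaged 44.2 ± 3.14 FPKM with JOA and 43.7 ± 1.90 FPKM in controls (SD, n = 3 each).

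Across the 17, 4 members were higher with JOA in all 3 pairs, 2 were lower in all 3, and 11 were mixed. The same count was not made over all genes, so it cannot be read as particular to the members. At an unadjusted p under 0.05 the paired fit held 5 of 17 (29.4%), beside 31.2% of all genes. The 5 were PCK2, PPP1R15A and SLC7A1 on the higher side and ALDH18A1 and PSAT1 on the lower.

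NB4 cells showed no member past the adjusted threshold either. Limma called 0 of 31 members at a Benjamini-Hochberg adjusted p under 0.05, beside 1 of all 12932 genes (0.00773%). At an unadjusted p under 0.05 there were 4 members, a share of 12.9%, beside 10.6% of all genes. All 4 (GPT2, CBS, EIF4EBP1 and ALDH18A1) were lower with JOA, where the share of all genes on that side was 2.43%. The groups did not overlap for 14 members (45.2%), beside 43.5% of all genes. JOA lay above control for 5 of them (16.1%, beside 32.5% of all genes) and below for 9 (29%, beside 11%). The median change of the 31 was 0.02 on the log2(TPM + 1) scale, beside 0.08 for all genes tested, and it turned to -0.08 beside -0.005 with median-ratio scaling. Transcripts of the mitochondrial genome held 12.6 ± 1.41% of TPM with JOA and 16.0 ± 1.31% in controls (SD, n = 2 each), and their part in the TPM of the members was not tested.

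**Figure D3:**
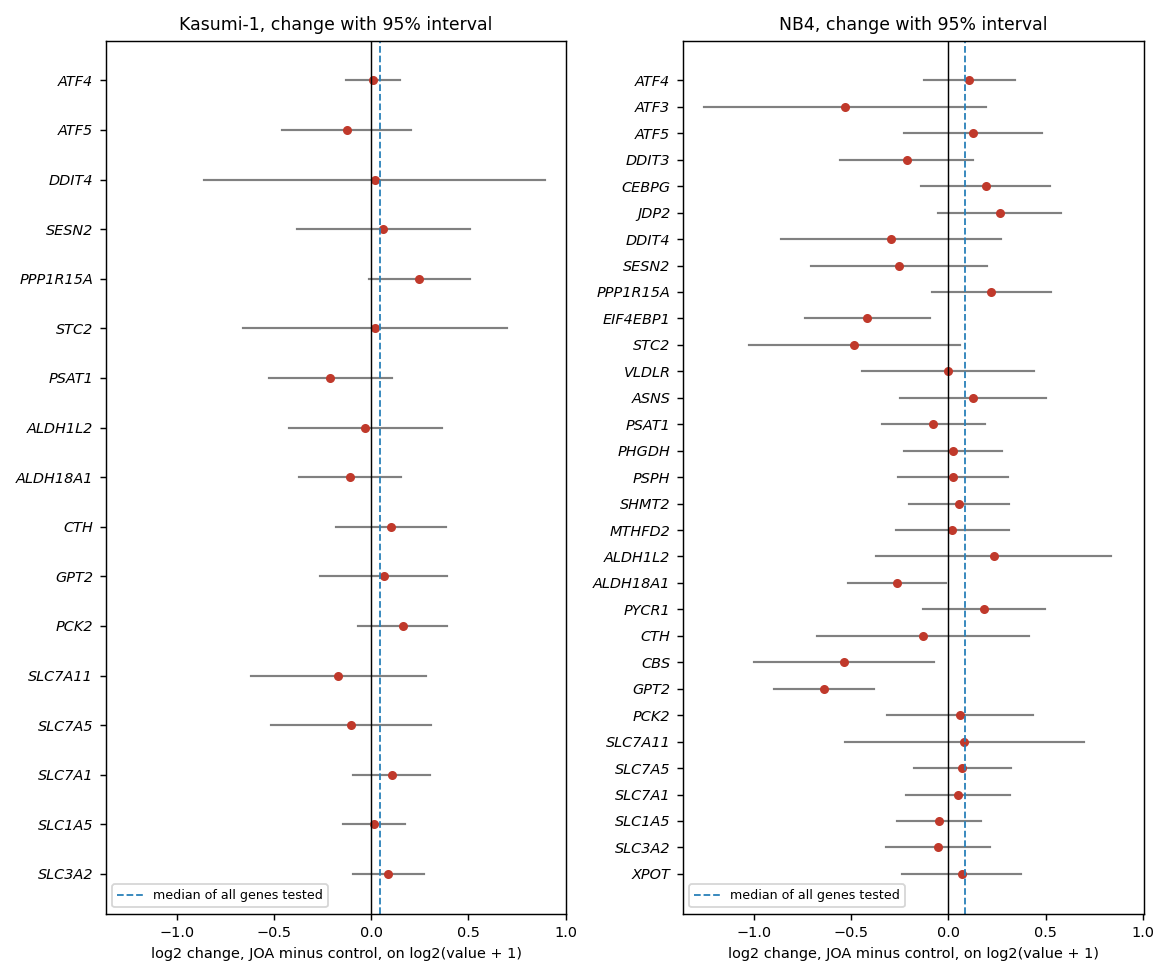
The log2 change of each tested member, JOA minus control on the log2(value + 1) scale, with its 95% interval from limma, in Kasumi-1 (left) and NB4 (right). The dashed line is the median of all genes tested. All 17 Kasumi-1 intervals, from the fit without pairing, include 0, and those of GPT2, CBS, EIF4EBP1 and ALDH18A1 in NB4 lie below it. In the paired Kasumi-1 fit, not drawn here, the intervals of PPP1R15A, PCK2, SLC7A1, PSAT1 and ALDH18A1 exclude 0.

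GPT2 (chr16:46884378-46931297), which moves nitrogen between glutamate and alanine in mitochondria, differed most among the NB4 members. It measured 52.0 and 46.7 TPM with JOA and 77.0 and 77.5 TPM in controls. The JOA libraries lay well below the controls, with a log2 change of -0.64 (95% interval -0.90 to -0.38), and the limma adjusted p was 0.170. CBS, which starts the making of cysteine from homocysteine, measured 3.68 and 3.32 TPM with JOA and 5.88 and 5.17 TPM in controls (log2 change -0.54, adjusted p = 0.416). The groups did not overlap for CBS, which has a near-identical annotated copy, CBSL, so the split of its reads is uncertain. ALDH18A1 measured 71.1 and 70.9 TPM with JOA and 80.6 and 90.5 TPM in controls, a log2 change of -0.26 with an adjusted p of 0.457.

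EIF4EBP1, the translation brake 4E-BP1 that mTORC1 inactivates, measured 179 and 164 TPM with JOA and 200.5 and 261 TPM in controls. Its groups did not overlap, at a log2 change of -0.42 (95% interval -0.74 to -0.10) and a limma adjusted p of 0.371. STC2 measured 1.47 and 1.97 TPM with JOA and 2.94 and 2.64 TPM in controls, again without overlap. SESN2 was at 4.12 and 4.51 TPM with JOA and 5.01 and 5.68 TPM in controls. DDIT4 was at 29.3 and 39.4 TPM with JOA and 32.4 and 54.3 TPM in controls, with overlap. Of the 6 members counted as feedback genes and tested in NB4, 5 had a negative log2 change with either scaling. The receptor VLDLR, close to 0, was among them. PPP1R15A was the other, with 22.8 and 22.6 TPM in JOA libraries and 19.9 and 18.7 TPM in controls, a log2 change of 0.22 with a limma adjusted p of 0.581. Over all genes tested, 66.2% of changes were positive, and 49.0% with median-ratio scaling.

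**Figure D4:**
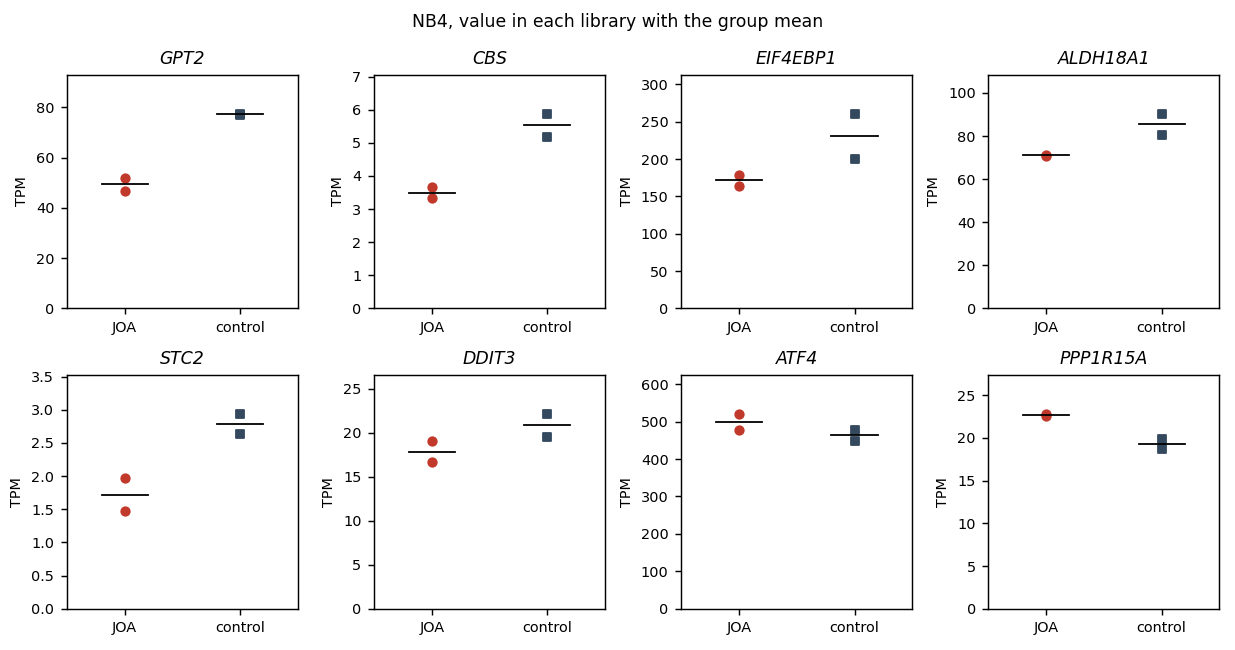
TPM of 8 members in each NB4 library, JOA left and control right, with lines at the group means. GPT2, CBS, EIF4EBP1, ALDH18A1, STC2 and DDIT3 lie lower with JOA, and ATF4 and PPP1R15A higher, without overlap between the 2 libraries of each group. None passed the adjusted threshold.

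CHAC1 degrades glutathione and is among the genes most strongly induced when the pathway is active. In NB4 it was listed at 0.166 and 0.123 TPM with JOA and 0.306 and 0.362 TPM in controls, under the filter. Its levels with JOA were thus below those in controls, at values too low for the test. NUPR1, a small stress-induced chromatin protein, averaged 0.572 TPM with JOA and 0.641 TPM in controls and was also under the filter.

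The factors of NB4 did not share a direction. ATF4 measured 479 and 521 TPM with JOA and 478 and 448 TPM in controls, the groups parting by less than 1 TPM, with a log2 change of 0.11 (95% interval -0.12 to 0.34). DDIT3, the pro-apoptotic factor CHOP, measured 19.0 and 16.7 TPM with JOA and 19.6 and 22.2 TPM in controls. ATF3, an early stress-response factor, measured 4.85 and 2.40 TPM with JOA and 4.32 and 6.80 TPM in controls. The DDIT3 groups did not overlap and the ATF3 groups did, with limma adjusted p-values of 0.629 and 0.578. CEBPG, a dimer partner of ATF4, and JDP2, a repressor of the AP-1 family, were higher in both JOA libraries, by 0.19 and 0.26 on the log2 scale. ATF5 overlapped, at 44.7 ± 8.17 TPM with JOA and 40.6 ± 3.67 TPM in controls (SD, n = 2 each).

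The serine and one-carbon enzymes were abundant in NB4 and close to equal between groups. PHGDH, the first step of serine synthesis, measured 112 and 128 TPM with JOA and 116 and 119.9 TPM in controls. SHMT2, which splits serine into glycine and a one-carbon unit in mitochondria, measured 351 and 407 TPM with JOA and 349 and 379 TPM in controls. MTHFD2, the next mitochondrial folate enzyme, measured 186 and 232 TPM with JOA and 208 and 201 TPM in controls. All 3 overlapped between groups, with log2 changes of 0.02, 0.06 and 0.02. PSAT1 measured 37.0 and 38.1 TPM with JOA and 38.7 and 40.6 TPM in controls, a log2 change of -0.08. ASNS measured 52.1 and 70.9 TPM with JOA and 59.6 and 51.8 TPM in controls, so the JOA libraries lay on both sides of control 1. The 95% intervals reached 0.28 on the log2 scale for PHGDH, 0.31 for SHMT2 and MTHFD2, 0.19 for PSAT1 and 0.50 for ASNS. PSPH, PYCR1, PCK2, CTH and ALDH1L2 all overlapped between groups, with log2 changes from -0.13 (CTH) to 0.23 (ALDH1L2).

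The NB4 carriers, with XPOT counted among them, differed least. All 6 changes lay between -0.05 (SLC3A2) and 0.08 (SLC7A11) on the log2 scale. SLC7A5 measured 298 and 296 TPM with JOA and 262 and 304 TPM in controls, and SLC3A2 measured 181 and 181 TPM with JOA and 171 and 206 TPM in controls. SLC7A11 was at 1.30 and 1.73 TPM with JOA and 1.67 and 1.09 TPM in controls. In these 3 the groups overlapped. SLC1A5, at 500.7 ± 9.86 TPM with JOA and 518 ± 11.6 TPM in controls (SD, n = 2 each), was close in level to ATF4, while SLC7A1 was at 37.3 and XPOT, which exports transfer RNA from the nucleus, at 85.8 TPM on average with JOA. The highest upper 95% bounds of the 31 members were those of ALDH1L2, at 0.84 on the log2(TPM + 1) scale, and SLC7A11, at 0.70, both at a low level where this scale understates a fold of TPM.

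NB4 values were deposited per transcript, which allowed the makeup of the members to be read, and no test was made of these shares with 2 libraries a group. The 33 members had 231 transcripts, and the leading one in controls held over 90% of the gene's TPM for 10 members and under 50% for 8. It was the same transcript with JOA for 32 of 33 members. ATF4-202 held 93.2 ± 1.48% with JOA and 92.9 ± 2.24% in controls (SD, n = 2 each). For 4 members the leading transcript was annotated as other than protein coding. Among these, MTHFD2-205, annotated for nonsense-mediated decay, held 56.3 ± 0.95% of MTHFD2 with JOA and 54.8 ± 0.94% in controls, and CBS-210, a retained intron, held 63.0 ± 16.3% with JOA and 36.0 ± 5.67% in controls. In TPM, CBS-210 measured 1.89 and 2.48 with JOA and 1.88 and 2.07 in controls, so the lower total of CBS was not seen in it. Among its coding transcripts, CBS-207 was listed at 0 in both JOA libraries and at 1.76 and 1.72 TPM in controls. CBS-204, also coding, went the other way, at 0.981 and 2.23e-06 TPM with JOA and 0 in both controls. For GPT2 the leading coding transcript GPT2-201 measured 43.1 and 38.3 TPM with JOA and 65.5 and 57.5 TPM in controls, so the gene-level difference was also seen in it. Of 13 listed pseudogenes of the members, 4 exceeded 1 TPM on average. PSPHP1 was the highest against its member, at 23.0% of PSPH, which makes the split of reads between them uncertain.

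The 7 members with the response element core that were tested in NB4 had log2 changes from -0.53 (ATF3) to 0.26 (JDP2), with a median of 0.05. The 17 tested members with a promoter entry and no core had a median of -0.001, from -0.54 to 0.22. These medians are descriptions over few genes.

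The response of the members was then compared between the lines as the change in Kasumi-1 minus the change in NB4, in 1 limma fit over all 10 libraries. Limma called 0 of 19 members at an adjusted p under 0.05, beside 14 of all 7261 genes (0.193%). Genes that passed the filter in at least 1 line were kept. The 19 thus include ASNS and PYCR1, which were under the filter in Kasumi-1 and entered through their NB4 levels. For these genes the difference between lines cannot be judged. At an unadjusted p under 0.05 there was 1 member, GPT2, beside 11.7% of all genes. Its difference was 0.70 on the log2 scale (95% interval 0.28 to 1.12), with Kasumi-1 at 0.07 and NB4 at -0.64. The limma adjusted p was 0.216, and 0.0691 with the replicate block in Kasumi-1 alone. The next lowest adjusted p was 0.637, for STC2. Of the 17 members tested in both lines, 4 had a positive change in both, 2 had a negative change in both, and 11 had opposite signs. PPP1R15A was positive in both, by 0.25 in Kasumi-1 and 0.22 in NB4, and ALDH18A1 was negative in both, by -0.11 in Kasumi-1 and -0.26 in NB4.

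Other genes of the pathway were read from 7 lists. Without pairing, limma called 0 of the 52 tested genes of these lists in Kasumi-1, with 15 at an unadjusted p under 0.05 (28.8%, beside 16.4% of all genes). The groups did not overlap for 17 of the 52 (32.7%, beside 23.1% of all genes). In NB4 limma called 0 of 102, with 14 at an unadjusted p under 0.05 (13.7%, beside 10.6% of all genes). With pairing in Kasumi-1, limma called 7 of the 52 (13.5%, beside 8.14% of all genes), none of which held once any 1 pair was left out. They included 2 of 6 tested genes among other ATF4 and CHOP targets, beside the same 8.14% of all genes. These were SQSTM1, an autophagy receptor that is also a target of NRF2, and CEBPB, a C/EBP factor. The median change of that list was 0.21 in Kasumi-1, beside 0.05 for all genes tested. In NB4 it was 0.14 over 13 genes, beside 0.08, and the changes of the 13 ran from -0.22 to 0.77. With median-ratio scaling the list medians were 0.15 and 0.05. SQSTM1 measured 11.7, 12.1 and 13.3 FPKM with JOA and 7.22, 8.08 and 7.21 FPKM in controls, and CEBPB measured 7.72, 6.03 and 6.40 FPKM with JOA and 4.21, 4.41 and 3.90 FPKM in controls. Neither overlapped, with paired adjusted p-values of 0.0280 for SQSTM1 and 0.0323 for CEBPB. In NB4 SQSTM1 was at 108 and 69.3 TPM with JOA and 89.0 and 74.6 TPM in controls, with overlap. CEBPB changed by -0.10 on the log2 scale in NB4. TRIB3, a pseudokinase that restrains ATF4 and CHOP, measured 11.5, 9.16 and 7.995 FPKM with JOA and 9.22, 7.97 and 7.36 FPKM in Kasumi-1 controls, and 56.7 and 56.6 TPM with JOA and 61.4 and 70.1 TPM in NB4 controls.

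Upstream of ATF4, the paired limma fit called 0 of 10 tested genes of the eIF2 arm in Kasumi-1. At an unadjusted p under 0.05 it held 6 of them (60%, beside 31.2% of all genes). The 6 did not share a direction, with DELE1, EIF2B1 and GCN1 higher with JOA and EIF2B3, EIF2S2 and IMPACT lower. The median change of the arm was 0.02 in Kasumi-1 and 0.04 over 17 genes in NB4 (-0.04 and -0.06 with median-ratio scaling). Its largest changes were those of DELE1 (0.23), which relays mitochondrial stress to eIF2, and the eIF2B subunit EIF2B3 (-0.22) in Kasumi-1, and of EIF2AK2 (0.29), the viral RNA sensor PKR, and PPP1R15B (0.28) in NB4. The aminoacyl-tRNA synthetases, which load transfer RNA with amino acids, had 0 of 7 called by limma in the paired Kasumi-1 fit, with 2 at an unadjusted p under 0.05 (28.6%, beside 31.2% of all genes). Their medians were -0.02 in Kasumi-1 and -0.01 over 20 genes in NB4, where CARS1, the cysteine enzyme, was at 0.893 and 1.34 TPM with JOA and 6.03 and 2.21 TPM in controls. Among other amino acid transporters 1 of 7 was called in the paired fit (14.3%, beside 8.14% of all genes), SLC43A1, which carries large neutral amino acids, at 23.0, 26.1 and 22.1 FPKM with JOA and 18.9, 19.1 and 19.0 FPKM in controls. Among other one-carbon genes 1 of 6 was called (16.7%, beside the same 8.14%), AHCY, which hydrolyses S-adenosylhomocysteine. It was at 55.3, 55.6 and 50.6 FPKM with JOA and 67.3, 67.1 and 62.7 FPKM in controls.

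Among mitochondrial chaperones and proteases the paired Kasumi-1 fit called 2 of 8 (25%, beside 8.14% of all genes), the protease subunit SPG7 with a log2 change of 0.25 and the chaperone HSPA9 with one of -0.22. In the IRE1 and ATF6 arm, which serves the endoplasmic reticulum, it called 1 of 8 (12.5%, beside the same 8.14%), the chaperone HSPA5. HSPA5 was at 230.3, 218 and 236 FPKM with JOA and 265, 276 and 317 FPKM in controls. In NB4 HSPA5 was at 103 and 103 TPM with JOA and 123 and 231 TPM in controls. The median change of that arm in NB4 was -0.30 over 15 genes, beside 0.02 for the 31 members. In Kasumi-1 it was 0.009 over 8 genes (-0.06 with median-ratio scaling). SDF2L1, another chaperone of that compartment, was at 20.2 and 14.4 TPM with JOA and 25.7 and 37.3 TPM in NB4 controls. Limma called it only with variance shared over both lines, in a fit over 7261 genes (adjusted p = 0.0409). Of the 15, 7 were lower at an unadjusted p under 0.05 (46.7%, beside 2.43% of all genes).

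**Figure D5:**
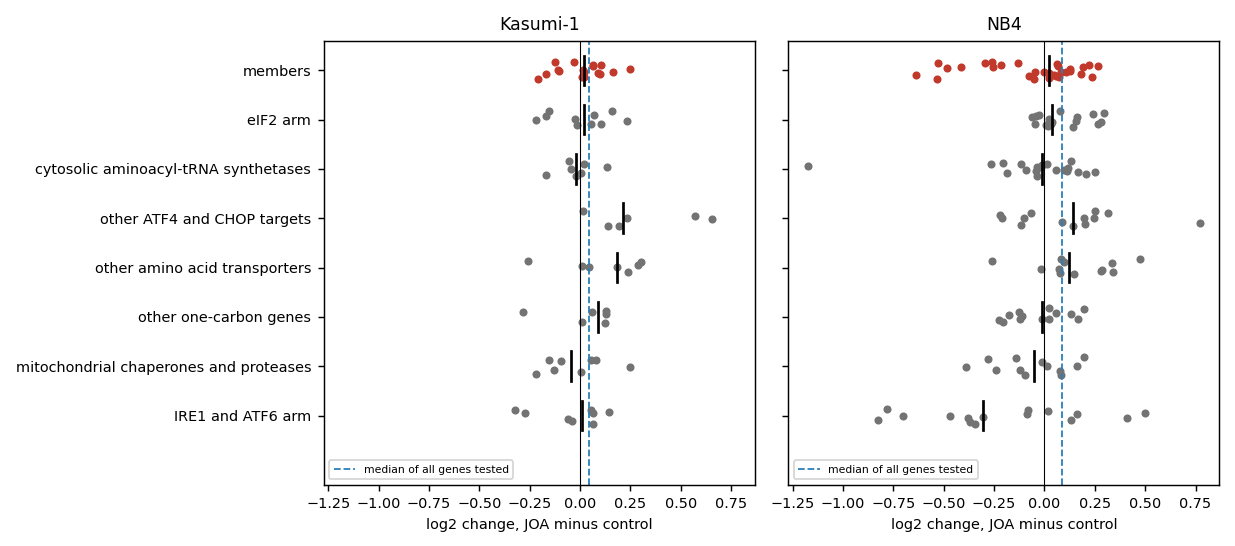
The log2 change of each tested gene, JOA minus control, for the members and the 7 other lists in Kasumi-1 (left) and NB4 (right), with short black bars at the list medians and a dashed line at the median of all genes tested. The member medians are 0.02 in both lines, and those of the IRE1 and ATF6 arm are 0.009 in Kasumi-1 and -0.30 in NB4.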

How the data were processed

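RNA was extracted with Trizol and made into libraries with a stranded TruSeq mRNA kit, per the labels' protocols. Cufflinks, HISAT2, HTSeq and Trimmomatic, and hg38 as the build, are listed in the submitters' processing notes without version or role. The authors deposited 1 table per line. Kasumi-1 values are FPKM, as the name of the deposited file states. Its 29053 rows carry sequence records as labels, and of these 10906 (37.5%) were matched to 10802 symbols. Only 1 member row carried the record version of the reference. Of 6983 low rows, 97.7% held whole multiples of 1 read within 0.01 of a read, which gave the relative depths. The name of the NB4 file says FPKM too. Its deposited columns each total slightly less than 1000000, and the values were read as TPM. Its 121005 transcripts (93.9% matched) were summed to genes, and unmatched transcripts held 3.06% of TPM.

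The fits used limma 3.58.1 in R 4.3.3 (with Python 3.11.15 and pandas 2.3.3 for the tables), 1 per line, on log2(value + 1) with a variance trend and no replicate block. Genes at 1 or more in at least 3 Kasumi-1 or 2 NB4 libraries were tested, with Benjamini-Hochberg adjustment and calls under 0.05. Kasumi-1 rows without a matched symbol were tested under their own records and counted among its genes. The fits were also run on simulated libraries drawn independently, with no deviation shared by replicate number. Those runs therefore cannot speak for the calls of the paired Kasumi-1 fit. The smallest p that an exact permutation test allows is 0.1 for 3 against 3 libraries and 0.333 for 2 against 2, so none was used. Same-numbered Kasumi-1 libraries correlated at 0.330 to 0.500 in their deviations from group means, so they were taken as pairs, although no label states this pairing. All other pairs correlated at -0.06 or below. Deviations from a group mean cancel out over its libraries, so these negative values follow in part from the positive ones. Correlations between replicates were 0.978 to 0.986.

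The members and lists were chosen with earlier results of these data known. Values in every library are given for 14 members whatever their result, for members under an unadjusted p of 0.05 in either line, and for those whose groups did not overlap with a log2 change of 0.3 or more. From the other lists, called genes were named, at most 4 a list. Some genes that were not called were named as well, namely TRIB3, CARS1 and those with the largest changes in the eIF2 arm. Alternatives were the pseudocount, the filter, scaling, pairing, shared variance and leaving out each library.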

Additional observations from a re-analysis of the deposited data

Results flagged for a closer look

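GPT2 was singled out because its response to JOA differed between the lines by a test of the difference itself in 1 of the 17 fits of that difference, that with the replicate number as a block in both lines; the NB4 numbers do not pair its libraries. The change in Kasumi-1 minus the change in NB4 was 0.70 on the log2 scale. In that fit limma gave a Benjamini-Hochberg adjusted p of 0.0484 and called 36 genes. Without the block the adjusted p was 0.216, and with the block in Kasumi-1 alone, where the numbers pair the libraries, it was 0.0691. In the other 14 fits it ran from 0.143 to 0.397, with 0 members called. In NB4 the GPT2 values were 52.0 and 46.7 TPM with JOA and 77.0 and 77.5 TPM in controls, and in Kasumi-1 they were 7.06, 4.996 and 5.18 FPKM with JOA and 6.30, 5.03 and 4.93 FPKM in controls. The part of unequal scaling of the tables in this difference was not tested beyond the alternatives given next.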

How the results depend on the processing

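The fits without pairing called 0 members in Kasumi-1, in NB4 and for the difference, so there was no call to lose. Over 271 values of members in Kasumi-1, 267 in NB4 and 304 for the difference under the alternatives, 3, 1 and 1 gained a call and uncalled values changed sign in 35, 32 and 10. In Kasumi-1, genes called numbered 0 without pairing, 985 with the replicate block, and 1118 with the block and median-ratio scaling. They numbered 4 of 7261 with variance shared over both lines, and 0 to 1 with 1 library left out. Members called numbered 1 with the block and 2 with the block and median-ratio scaling. In NB4, where 1 gene was called, 0 were called with a pseudocount of 0.1, without the filter, with median-ratio scaling or with any 1 library left out, and 156 with shared variance. The NB4 replicate numbers do not pair the libraries (r = 0.0657), and the block gave 157 genes and 1 member, GPT2 (adjusted p = 0.0368); shared variance gave GPT2 0.0516. The NB4 member median of 0.02 was -0.076 with median-ratio scaling, and -0.055 to -0.0013 with 1 library left out. In the fit with shared variance it was 0.048, over only the 19 members in both tables. Sharing the variance left the change of each of these members as it was. The difference between lines called 14 genes, 36 with the block, 2 with a pseudocount of 0.1, 36 without the filter, 1 with both tables rescaled to the same total, 7 with the block in Kasumi-1 alone, and 2 to 111 with 1 library left out; members called numbered 1 with the block. With TGATGCAA alone, 4 members held the motif in place of 8. The cause of the other shifts was not tested. ASNS and PYCR1 had few reads on their matched Kasumi-1 rows, and 14 members were not analysed there.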
